A study of Homo sapiens with 8 samples.

Results

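The 38 genes described here carry out mitosis and the passage from G2 into it. They were taken by name from a list of G2/M, spindle, kinetochore and cytokinesis genes, out of 61228 gene names in the count tables. The list was chosen with earlier results of these data known, so it was given no test as a set. All 38 passed the filter on low counts. They fall into 7 roles: 6 cyclins and parts of the CDK1 switch, 4 mitotic kinases, 6 genes of the spindle checkpoint and anaphase, 5 of the centromere and kinetochore, 9 of spindle assembly and its motors, 6 of the central spindle and cytokinesis, and 2 of chromosome structure.

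RNA was read from 2 human lines derived from lung cancer, H1975 and HCC44. Each was grown for 96 hours with the solvent DMSO or with ACBI1. ACBI1 is a compound that brings SMARCA2, SMARCA4 and PBRM1, which belong to the SWI/SNF remodellers of chromatin, to a ubiquitin ligase for degradation. The labels give its concentration as 1 mM, and whether that unit is right could not be settled. All 8 samples are labelled genotype WT, with 2 libraries in each of the 4 groups, and each line is a single established culture. Because the compound removes proteins, transcripts do not check the treatment labels. The second HCC44 ACBI1 library is titled with a shortened compound name but labelled as treated with ACBI1. Nothing in the labels says that the 2 libraries of a group came from separate cultures, so p-values measure the spread between these libraries, which may be technical. Replicate numbers below are those of the labels.

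Mitosis begins when CDK1 bound to cyclin B is switched on, and it ends when the anaphase-promoting complex marks cyclin B and securin for destruction. The transcripts of these genes are low early in the cell cycle and rise together in G2. Their promoters are held down by the DREAM complex in resting cells and driven by MYBL2 and FOXM1 in dividing ones. DREAM and its partners contact DNA at the cell cycle genes homology region (CHR) and, through NF-Y, at CCAAT boxes. In a tumour biopsy or a culture, MKI67 and TOP2A from this group are the usual marks of dividing cells.

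Gene counts came to between 62467286 and 70455517 per library. Levels are CPM, a gene's counts scaled to a common library size with TMM factors, and the numbers after a level are SDs over n = 2 libraries. The 2 libraries of a group correlated at 0.9962 to 0.9978 on the log scale. Epithelial markers were checked against the label of lung cancer. Under DMSO, H1975 had KRT7 at 3054 ± 98.3 CPM, EPCAM at 171 ± 18.6 CPM and the lung factor NKX2-1 at 25.9 ± 2.22 CPM. HCC44 had KRT7 at 441 ± 25.6 CPM and EPCAM at 10.6 ± 0.341 CPM, but NKX2-1 was near 0 at 0.0159 ± 0.0225 CPM. Of 9 epithelial markers 8 were tested. Under DMSO all 8 were called at least 2-fold lower in HCC44, against 25.4% of all tested genes. With ACBI1, 0 of them rose and 5 fell in H1975, against 14.6% and 16.7%. In HCC44, 2 rose and 1 fell, against 17.5% and 17.4%. Of 12 markers of other cell types, 4 (PTPRC, CD3E, COL3A1 and CHGA) were too low to test, while COL1A1 was at 80.3 ± 13.0 CPM under DMSO and 302 ± 144 CPM with ACBI1 in HCC44. Among the other 8, 2 rose and 2 fell in HCC44, and 4 rose and 2 fell in H1975. The 8 summed to 79.0 to 97.8 CPM in the HCC44 DMSO libraries and 205.7 to 410.3 with ACBI1, or 7.87 to 8.24 and 5.33 to 6.75 without COL1A1, and to 53.3 to 79.7 and 53.9 to 56.1 CPM in H1975. Without COL1A1 the H1975 sums were 8.86 to 10.87 CPM under DMSO and 27.2 to 31.0 with ACBI1. Their part in the results below was not tested.

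RefSeq promoters (GRCh38.p14), running from 250 bases before to 50 after the first listed transcript start, were found for 33 of the 38 genes. The CHR was searched as TTTGAA, a CHR variant as TTCGAA, the CCAAT box as CCAAT, and E2F-like sites as TTTCGCGC, TTTGGCGC or TTTCCCGC, each on both strands. TTCGAA reads the same on both strands and was counted once. A CHR was found in 23 of 33 promoters (69.7%), against 15.4% of all 27303 promoters of this length. A CCAAT box was found in 26 of 33 (78.8%), against 35.7% of all, and 18 of the 33 held at least 2, as did 11.3% of all. Both a CCAAT box and either form of the CHR were present in 20 (60.6%), against 6.58% of all promoters. The CHR variant and E2F-like sites were rare, in 3 promoters each (9.09%), against 1.45% and 2.79% of all.

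Of the 32 CHR matches, 20 (62.5%) lay within 50 bases of the start, and the median position was 29 bases before it. Over all promoters 27% of CHR matches lay that close. CCAAT boxes lay further out, at a median of 83 bases before the start over 60 matches. No searched motif was in the windows of CDC25C, CENPE and KIF2C.

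**Figure D1:**
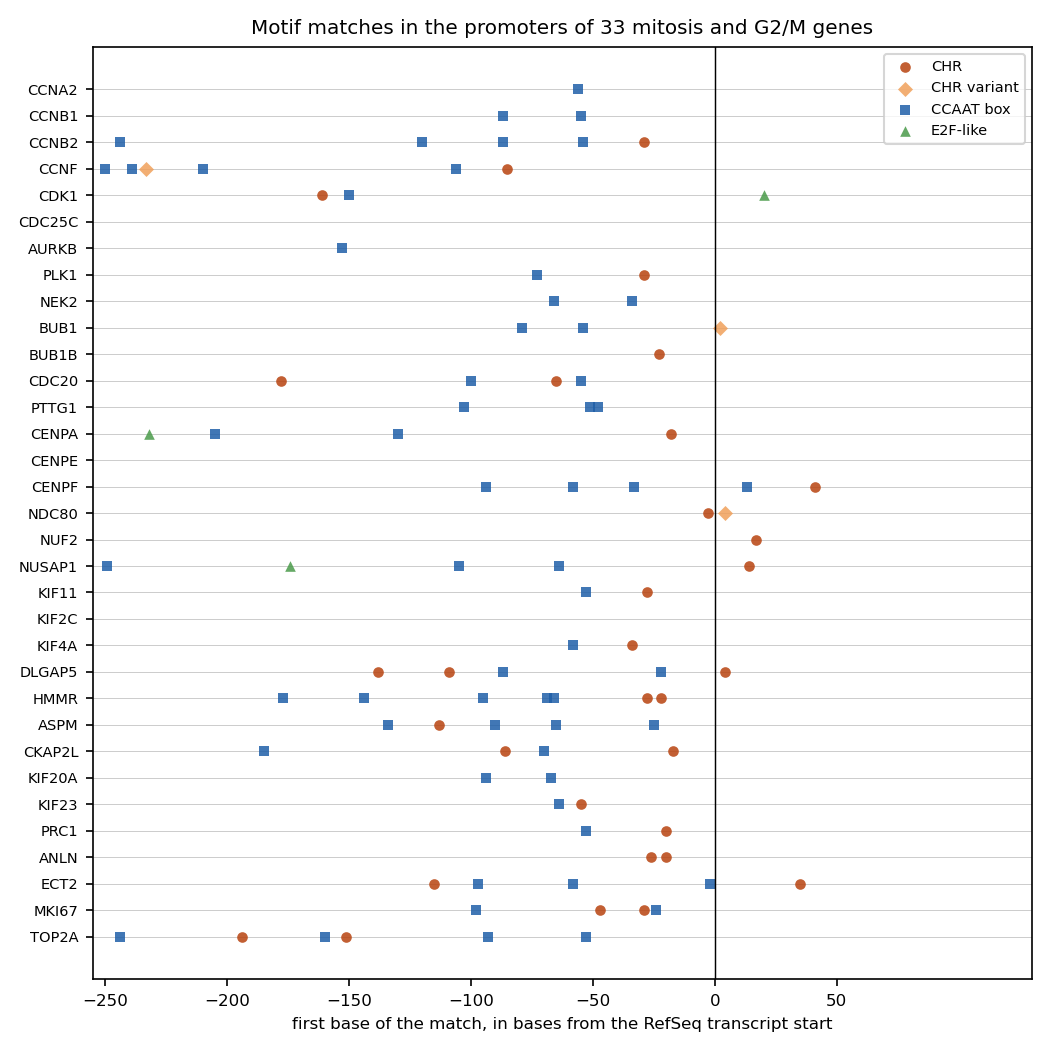
Positions of motif matches in the 33 promoters found, 1 gene per line, with the first base of each match in bases from the RefSeq transcript start (vertical line at 0). Circles are CHR, diamonds its variant, squares CCAAT boxes and triangles E2F-like sites. Of the 32 CHR matches, 20 lie within 50 bases of the start, and the lines of CDC25C, CENPE and KIF2C are empty.

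The promoters below belong to 6 genes that rose with ACBI1 in HCC44 and carry a CHR or a CCAAT box, printed to show how the motifs are laid out. Each begins 200 bases before the first listed RefSeq transcript start and ends there or where an annotated exon of the gene begins. The AURKB stretch lies inside the gene as GENCODE annotates it, with its 5′ end at 8210600. It therefore does not show the sequence ahead of that end. Capitals mark the letters of a CHR or a CCAAT box on this strand or, read in reverse complement, on the other. The stretches run 5′ to 3′ on the gene's own strand, and matches outside them are not shown. They cover CDC20 chr1:43358781-43358954 on the plus strand, MKI67 chr10:128126424-128126623 on the minus strand and AURKB chr17:8210255-8210425 on the minus strand, and TOP2A chr17:40417951-40418096 on the minus strand, CENPF chr1:214602995-214603194 on the plus strand and BUB1 chr2:110678115-110678263 on the minus strand.
CDC20: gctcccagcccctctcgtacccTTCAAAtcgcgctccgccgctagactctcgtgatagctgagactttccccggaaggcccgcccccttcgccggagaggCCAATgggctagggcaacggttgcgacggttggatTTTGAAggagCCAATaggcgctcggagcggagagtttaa
MKI67: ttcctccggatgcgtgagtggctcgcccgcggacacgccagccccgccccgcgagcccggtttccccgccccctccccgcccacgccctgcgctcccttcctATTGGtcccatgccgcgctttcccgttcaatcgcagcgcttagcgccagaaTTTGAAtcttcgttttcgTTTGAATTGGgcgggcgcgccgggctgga
AURKB: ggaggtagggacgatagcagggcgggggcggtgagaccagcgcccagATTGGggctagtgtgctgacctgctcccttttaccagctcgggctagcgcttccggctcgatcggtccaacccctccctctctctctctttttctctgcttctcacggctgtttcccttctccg
TOP2A: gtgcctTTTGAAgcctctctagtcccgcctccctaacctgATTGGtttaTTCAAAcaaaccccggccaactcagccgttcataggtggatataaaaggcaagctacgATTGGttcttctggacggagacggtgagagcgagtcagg
CENPF: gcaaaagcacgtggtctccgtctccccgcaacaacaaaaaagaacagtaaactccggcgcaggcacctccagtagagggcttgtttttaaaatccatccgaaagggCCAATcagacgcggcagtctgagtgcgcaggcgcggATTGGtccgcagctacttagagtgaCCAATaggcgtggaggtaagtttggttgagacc
BUB1: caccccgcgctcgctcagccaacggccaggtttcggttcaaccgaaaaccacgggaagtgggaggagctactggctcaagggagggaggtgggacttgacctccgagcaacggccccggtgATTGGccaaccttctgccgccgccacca
In CDC20 and TOP2A each CHR is followed by a CCAAT box further on. Near its end MKI67 has TTTGAATTGG, in which a CHR and a CCAAT box share letters. AURKB and BUB1 show a single CCAAT box each in the stretch printed.

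CCNF and PTTG1 had the lowest HCC44 fold changes of the 38 and are printed for contrast, at CCNF chr16:2429247-2429393 on the plus strand and PTTG1 chr5:160421655-160421821 on the plus strand.
CCNF: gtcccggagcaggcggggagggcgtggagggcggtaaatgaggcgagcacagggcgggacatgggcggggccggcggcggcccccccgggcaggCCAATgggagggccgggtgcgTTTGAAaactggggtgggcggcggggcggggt
PTTG1: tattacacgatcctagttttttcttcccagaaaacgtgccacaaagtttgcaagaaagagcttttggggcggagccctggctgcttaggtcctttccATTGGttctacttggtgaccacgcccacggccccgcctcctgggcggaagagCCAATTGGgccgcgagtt
CCNF holds a CHR and a CCAAT box in this stretch. Ahead of the stretch, the CCNF window also held CCAAT boxes at -250, -239 and -210 and a CHR variant at -233 bases from the start. PTTG1 holds 3 CCAAT boxes and no CHR, and the last of its boxes overlap in CCAATTGG. So the letters searched were present in genes that were called and in genes that were not. A match is a description of the sequence and no evidence that a factor was bound.

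ACBI1 was followed by a rise of nearly the whole group in HCC44 and by no call in H1975. In HCC44, 35 of 38 genes rose and 0 fell at an adjusted p under 0.05, which is 92.1% of them. Of all 21307 genes tested in HCC44, 34.9% were called, 17.5% as risen. Scaling by library totals alone called 36 of the 38 as risen, and 4534 of all genes as risen and 2964 as fallen, where TMM scaling gave 3720 and 3718. The rises ran from 1.76-fold for ECT2 to 5.11-fold for CDC25C, and the median of the 38 log2 fold changes was 1.71 (3.27-fold), against 0.01 over all tested genes. Of the 35, 34 rose at least 2-fold, as did 8.8% of all tested genes. In H1975, 0 of the 38 and 6.7% of all tested genes rose that far. Both ACBI1 libraries stood above both DMSO libraries for 36 of 38, against 34.1% of all tested genes. Adjusted p here means the Benjamini-Hochberg value over all tested genes from edgeR's quasi-likelihood F-test. In bulk RNA, a change in the share of dividing cells and a change in each transcript per cell cannot be told apart.

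In H1975, 0 genes rose and 0 fell by the same test, where 31.3% of all tested genes were called. At an unadjusted p under 0.05 there were 2, ECT2 and CCNF, and DESeq2 called 1, ECT2. The median log2 fold change was 0.06, with a range from -0.55 (KIF20A) to 0.44 (ECT2), against -0.01 over all tested genes. The ACBI1 libraries stood above both DMSO libraries for 4 genes and below both for 4, and overlapped them for 30. Over all tested genes those shares were 33.1% above and 34.2% below. A p that misses the threshold does not show that levels were equal.

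The same fit tested how far the HCC44 response exceeded that of H1975. It was called for 20 of 38 genes, all with the larger rise in HCC44, while 18.6% of all tested genes were called, 10.2% in that direction and 8.4% in the other. Its median was 1.71 on the log2 scale, against 0.04 over all tested genes, and it was above 0 for all 38. Values called ran from 1.34 (BUB1B) to 2.77 (KIF20A).

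Single libraries moved these counts. The HCC44 count was 22 without HCC44 ACBI1 replicate 2 and 20 with no filter on low counts, with 0 fallen in each. It was 26 without either of the H1975 DMSO libraries and 31 to 36 without any other library. Of the 35 genes, 34 had a positive value in each of the 18 fits run, PRC1 did in the 17 that kept it, and 13 were called in all: BUB1B, CCNA2, CCNB2, CDC25C, ECT2, KIF11, KIF20A, KIF23, KIF4A, MKI67, NDC80, NUF2 and TTK. The count of called differences was less stable. It was 2 and 5 without H1975 DMSO replicate 1 and 2, 7 and 6 without H1975 ACBI1 replicate 1 and 2, 7 without HCC44 ACBI1 replicate 2, 34 without HCC44 DMSO replicate 2, and 31 with non-robust dispersion. KIF11 and KIF23 were called different in each fit that gave that comparison.

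**Figure D2:**
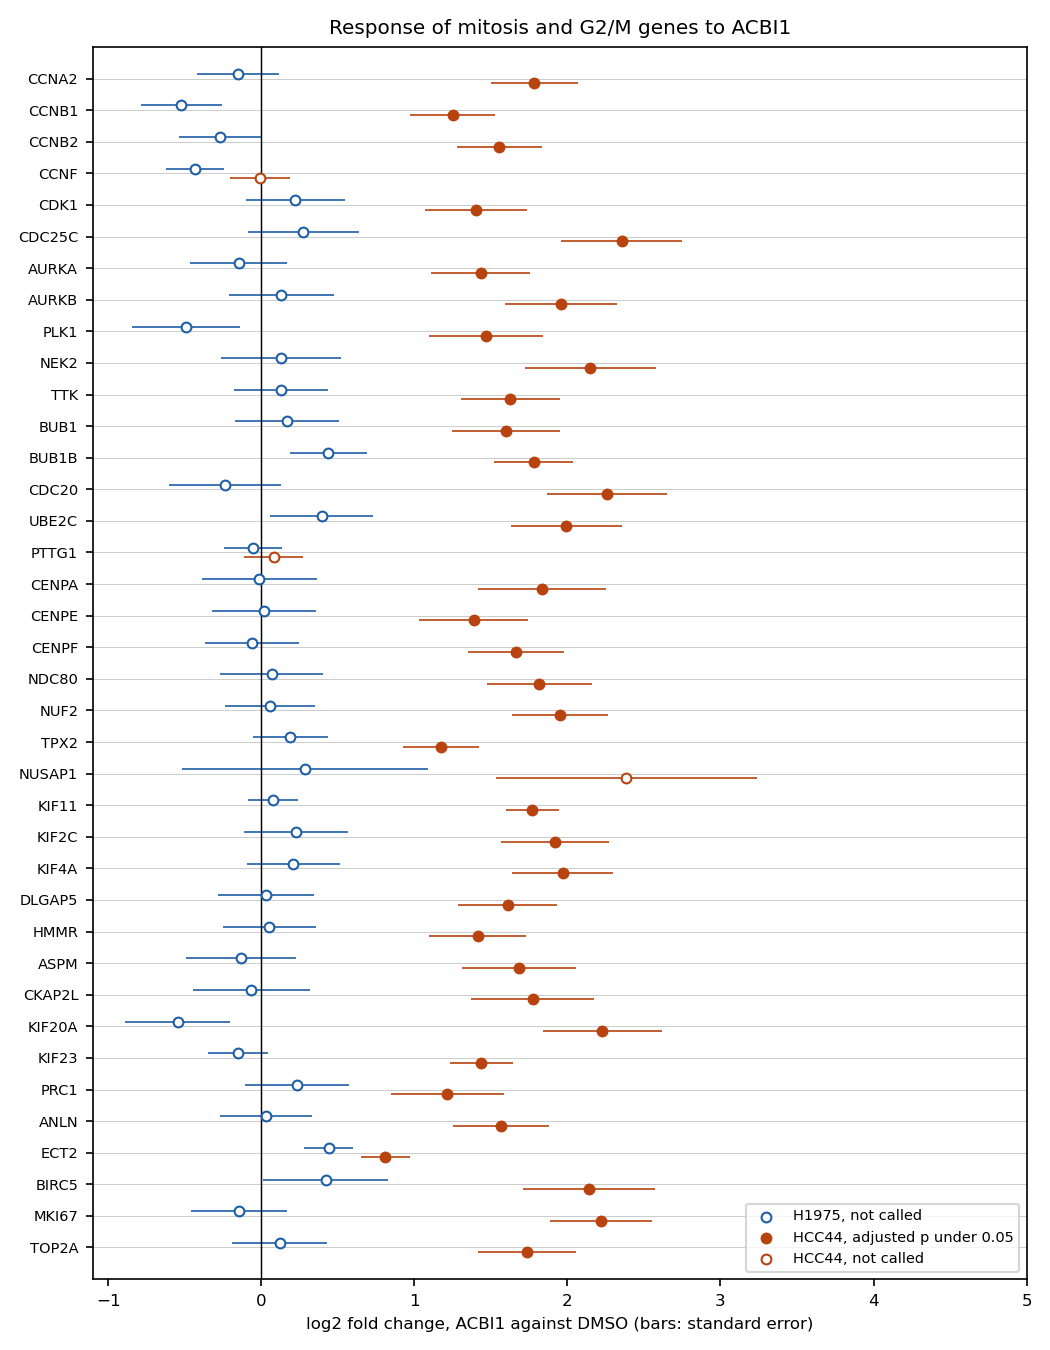
Log2 fold change of ACBI1 against DMSO for each of the 38 genes, in order of role, with bars of 1 standard error from the fit. Blue points are H1975 and orange points HCC44, and filled points have an adjusted p under 0.05. The H1975 points lie between -0.55 and 0.44, and all HCC44 points except CCNF, PTTG1 and ECT2 lie above 1.

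The replicate libraries were not level for these genes. The group's summed level was 2308 and 2054 CPM in H1975 DMSO, 2504 and 1946 in H1975 ACBI1, 510.1 and 894.3 in HCC44 DMSO, and 1665 and 2377 in HCC44 ACBI1, for replicates 1 and 2. Replicate 1 was the higher for all 38 genes in both H1975 groups. In HCC44, replicate 2 was the higher for 37 of 38 under DMSO and for all 38 with ACBI1. The gap between the HCC44 DMSO libraries was a median of -0.95 on the log2 scale (replicate 1 minus 2), against -0.03 over all genes, and that between the ACBI1 libraries was -0.47, against -0.01. So the 38 genes moved together between replicates as well as between treatments. The highest HCC44 DMSO sum was still below the lowest HCC44 ACBI1 sum. What set the replicates apart was not tested. Without HCC44 DMSO replicate 1 the median HCC44 fold change was 1.28 on the log2 scale, and without replicate 2 it was 2.27.

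**Figure D3:**
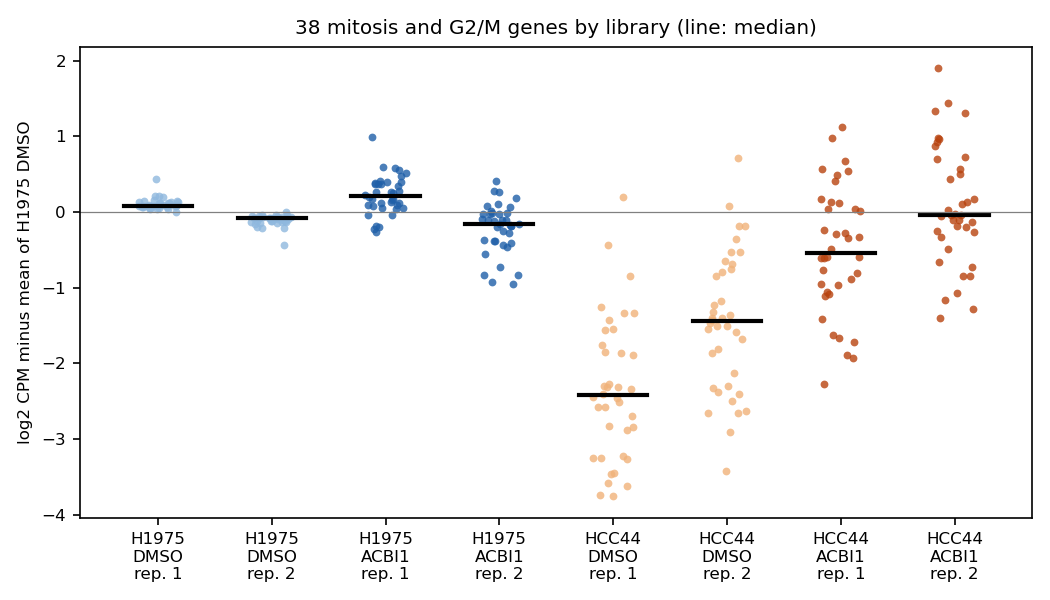
Log2 CPM of each of the 38 genes (points) in each of the 8 libraries, minus that gene's mean in H1975 DMSO, with the median as a bar and sideways scatter only to part the points. The medians of the HCC44 DMSO libraries lie lowest, at -2.42 and -1.44, and those of the HCC44 ACBI1 libraries at -0.537 and -0.0367.

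Cyclins and the CDK1 switch start mitosis. Of the 6 genes, 5 rose in HCC44 and CCNF was not called. CDK1, the kinase of the mitotic switch (chr10:60778331-60794852 in GRCh38), stood at 10.0 and 21.0 CPM in the HCC44 DMSO libraries and at 34.4 and 47.7 CPM with ACBI1. In H1975 it stood at 65.3 and 55.1 CPM under DMSO and at 77.8 and 62.7 with ACBI1. The HCC44 groups were apart and the H1975 groups overlapped. This gave 1.40 ± 0.34 (SE, adjusted p = 0.0159) as log2 fold change in HCC44 and 0.22 ± 0.32 (SE, adjusted p = 0.649) in H1975, and the difference of 1.18 ± 0.46 (SE, adjusted p = 0.127) was not called. The HCC44 call for CDK1 was lost without HCC44 ACBI1 replicate 2, at 1.15 (adjusted p = 0.112). It was also lost without any one H1975 library, where the value was 1.40 and adjusted p-values ran from 0.0604 to 0.0711.

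CCNB1 encodes cyclin B1, the partner that activates CDK1 (chr5:69167010-69178245). It was at 11.4 and 16.0 CPM under DMSO and 25.4 and 40.0 CPM with ACBI1 in HCC44, and at 88.0 and 79.5 and then 69.9 and 46.8 CPM in H1975. Treated libraries were above the controls in HCC44 and below them in H1975, with no overlap in either line. The HCC44 fold change was 1.25 ± 0.28 (SE, adjusted p = 0.0101), the H1975 value -0.52 ± 0.27 (SE, adjusted p = 0.183) and the difference 1.77 ± 0.38 (SE, adjusted p = 0.018). Without HCC44 DMSO replicate 1 the HCC44 value was 1.02 (adjusted p = 0.0524), and without H1975 DMSO replicate 1 or 2 the difference was 1.70 (adjusted p = 0.0956) or 1.79 (adjusted p = 0.0737). CCNA2 (cyclin A2) and CCNB2 (cyclin B2) rose in HCC44 with log2 fold changes of 1.78 and 1.56.

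CDC25C, the phosphatase that removes the inhibitory phosphates from CDK1 (chr5:138285265-138338355), had the largest called rise. Its levels were 1.10 and 2.38 CPM in the HCC44 DMSO libraries and 6.48 and 11.3 CPM with ACBI1. H1975 had 6.82 and 5.21 CPM and 8.50 and 6.04 CPM. One treated HCC44 library lay within the range of H1975 and the other above it, and the H1975 groups overlapped. This was a log2 fold change of 2.35 ± 0.40 (SE, adjusted p = 0.00174) in HCC44, and the difference from H1975 was 2.08 ± 0.53 (SE, adjusted p = 0.0263). That difference lost its call without either H1975 DMSO library, H1975 ACBI1 replicate 2, HCC44 DMSO replicate 1 or HCC44 ACBI1 replicate 2, with values from 1.62 to 2.21.

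CCNF, cyclin F, is a substrate-recruiting subunit of an SCF ubiquitin ligase and does not activate a CDK (chr16:2429394-2458854). It was at 11.8 and 11.2 CPM under DMSO and 9.65 and 13.2 CPM with ACBI1 in HCC44, so the groups overlapped. In H1975 it was at 31.5 and 27.9 CPM under DMSO and 26.1 and 17.9 CPM with ACBI1, with both treated libraries lower. Log2 fold changes were -0.01 ± 0.20 (SE, adjusted p = 1) in HCC44 and -0.43 ± 0.19 (SE, adjusted p = 0.111) in H1975. Without H1975 ACBI1 replicate 1 the H1975 value was -0.69 (adjusted p = 0.0261). Antisense genes overlap CCNF in GENCODE, and the counter's strand setting is not given in the sources used here, so their reads cannot be told apart.

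All 4 mitotic kinases rose in HCC44. AURKA, the kinase of centrosome maturation and spindle poles (chr20:56369389-56392337), was at 31.3 and 49.3 CPM under DMSO and 78.9 and 139 CPM with ACBI1 in HCC44. H1975 had 58.8 and 53.6 CPM and 59.4 and 42.1 CPM. AURKA was the kinase with the least difference between the lines under DMSO, and treated HCC44 libraries stood above every H1975 library. Its fold change was 1.43 ± 0.32 (SE, adjusted p = 0.0123) in HCC44 and -0.15 ± 0.32 (SE, adjusted p = 0.767) in H1975, and the difference, 1.58 ± 0.45 (SE, adjusted p = 0.0512), just missed the threshold. The HCC44 call was lost without HCC44 ACBI1 replicate 2, at 0.97 (adjusted p = 0.056), and without H1975 DMSO replicate 1 or 2, at adjusted p = 0.0678 and 0.0669. Pseudogenes of AURKA are annotated, as they are for CCNB2, NEK2, BUB1, CDC20, UBE2C, DLGAP5 and MKI67. How reads were shared with them is not given in the sources used here.

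AURKB, the kinase of the chromosomal passenger complex (chr17:8204733-8210600), was at 6.58 and 12.5 CPM in HCC44 DMSO and 29.5 and 44.8 CPM in HCC44 ACBI1. The H1975 libraries held 72.2 and 54.3 CPM under DMSO and 82.5 and 56.1 CPM with the compound, and these overlapped. AURKB showed a log2 fold change of 1.96 ± 0.36 (SE, adjusted p = 0.00553) in HCC44 against 0.13 ± 0.34 (SE, adjusted p = 0.811) in H1975. The difference was 1.83 ± 0.49 (SE, adjusted p = 0.0441), and it was called without 1 of the 8 libraries in turn, HCC44 DMSO replicate 2.

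PLK1, polo-like kinase 1, acts from mitotic entry to cytokinesis (chr16:23677656-23690367). HCC44 held 6.50 and 9.51 CPM under DMSO and 14.8 and 29.4 CPM with ACBI1, and H1975 held 79.2 and 64.9 and 62.4 and 40.1 CPM. The treated libraries were higher in HCC44 and lower in H1975, without overlap. The fold changes were 1.47 ± 0.37 (SE, adjusted p = 0.0203) in HCC44 and -0.49 ± 0.35 (SE, adjusted p = 0.338) in H1975, and the difference was 1.96 ± 0.51 (SE, adjusted p = 0.039). With each library left out in turn, that difference ran from 1.38 to 2.37, and most of those fits did not call it. The HCC44 value was 0.89 (adjusted p = 0.0899) without HCC44 ACBI1 replicate 2, 1.21 (adjusted p = 0.0831) without HCC44 DMSO replicate 1, and 1.47 and 1.46 at adjusted p = 0.0798 and 0.0817 without H1975 DMSO replicate 1 and 2. NEK2, a kinase that splits the centrosomes, rose by 2.15 on the log2 scale in HCC44 from 3.83 ± 1.98 CPM under DMSO.

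The spindle checkpoint holds anaphase back until every kinetochore is attached, and the genes of anaphase then release the chromatids. Of the 6 genes in this role, 5 rose in HCC44 and PTTG1 was not called. CDC20, the activator of the anaphase-promoting complex that the checkpoint restrains (chr1:43358955-43363203), was at 8.31 and 16.1 CPM under DMSO and 40.3 and 76.4 CPM with ACBI1 in HCC44. H1975 held 84.0 and 74.5 CPM and 77.3 and 57.4 CPM. The HCC44 groups were far apart, while the H1975 groups overlapped. CDC20 had a log2 fold change of 2.26 ± 0.39 (SE, adjusted p = 0.00413) in HCC44 against -0.23 ± 0.37 (SE, adjusted p = 0.674) in H1975. The difference was 2.49 ± 0.53 (SE, adjusted p = 0.0193), the next after KIF20A among the 38. It lost its call without any one H1975 library (2.27 to 2.68, adjusted p = 0.117 to 0.181) and without HCC44 ACBI1 replicate 2, at 1.96 (adjusted p = 0.056).

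BUB1, a checkpoint kinase at the kinetochore (chr2:110637698-110678114), stood at 9.52 and 21.0 CPM in HCC44 DMSO and 40.8 and 51.6 CPM in HCC44 ACBI1. In H1975 the values were 65.5 and 57.8 CPM and 80.7 and 57.9 CPM. The HCC44 groups did not overlap. BUB1 had a log2 fold change of 1.60 ± 0.35 (SE, adjusted p = 0.0112) in HCC44, 0.17 ± 0.34 (SE, adjusted p = 0.749) in H1975, and a difference of 1.43 ± 0.48 (SE, adjusted p = 0.0854) that was not called. The HCC44 value was 1.42 (adjusted p = 0.0847) without HCC44 ACBI1 replicate 2, and adjusted p was 0.0637 and 0.0631 without H1975 DMSO replicate 1 and 2.

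BUB1B encodes BubR1, the checkpoint protein that binds CDC20 (chr15:40161023-40221136). It was at 27.8 and 25.4 CPM in H1975 DMSO and 40.3 and 31.8 CPM in H1975 ACBI1, one of the 4 genes with both treated H1975 libraries higher. HCC44 held 9.06 and 16.4 CPM and then 38.8 and 48.7 CPM. The fold changes were 0.44 ± 0.25 (SE, adjusted p = 0.229) in H1975 and 1.78 ± 0.26 (SE, adjusted p = 0.0011) in HCC44. Of its exon length, 10.2% is shared with the readthrough gene BUB1B-PAK6 on the same strand. TTK, the kinase that starts checkpoint signalling, rose by 1.63 in HCC44, and UBE2C, the ubiquitin-conjugating enzyme of the anaphase-promoting complex, by 1.99.

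PTTG1 encodes securin, which keeps separase inactive until anaphase (chr5:160421822-160428744). It was at 21.0 and 29.9 CPM in HCC44 DMSO and 23.4 and 30.5 CPM in HCC44 ACBI1, and at 29.1 and 27.6 and 30.9 and 23.9 CPM in the H1975 groups. All 8 libraries lay between 21.0 and 30.9 CPM, and the groups overlapped in both lines. The fold changes were 0.08 ± 0.19 (SE, adjusted p = 0.79) in HCC44 and -0.05 ± 0.19 (SE, adjusted p = 0.87) in H1975. PTTG1 was not called between the lines under DMSO either, at -0.16 ± 0.19 (SE, adjusted p = 0.486). That value ran from -0.44 to 0.08 with each library left out in turn.

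All 5 centromere and kinetochore genes rose in HCC44, by 1.39 (CENPE) to 1.95 (NUF2) on the log2 scale. The CENPE value ran from 0.95 to 2.01 with each library left out in turn, and most of those fits did not call it. CENPF, a large protein of the outer kinetochore (chr1:214603195-214664588), was at 24.6 and 43.3 CPM under DMSO and 80.3 and 135 CPM with ACBI1 in HCC44. H1975 held 129.7 and 116 CPM and 128 and 108 CPM. One treated HCC44 library lay above all 4 H1975 libraries and the other below them. CENPF had a log2 fold change of 1.67 ± 0.32 (SE, adjusted p = 0.00605) in HCC44 and -0.06 ± 0.30 (SE, adjusted p = 0.911) in H1975, with a difference of 1.72 ± 0.44 (SE, adjusted p = 0.0351). The difference lost its call without any H1975 library (1.58 to 1.81, adjusted p = 0.149 to 0.211) and without HCC44 ACBI1 replicate 2, at 1.30 (adjusted p = 0.0927). CENPA, the histone H3 variant that marks the centromere, went from 2.21 ± 0.982 CPM to 7.87 ± 4.25 CPM in HCC44, and CENPE, the kinetochore motor, from 9.38 ± 4.61 CPM to 24.6 ± 8.09 CPM. NDC80 and NUF2 form the arm of the microtubule-binding NDC80 complex. They rose by 1.82 and 1.95. NDC80 reached 32.6 and 41.8 CPM in the treated HCC44 libraries, above the 4 H1975 libraries, at 17.5 and 15.7 CPM under DMSO and 19.9 and 14.9 CPM with ACBI1.

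Of the 9 genes of spindle assembly and motors, 8 rose in HCC44. KIF11, the kinesin-5 motor that pushes spindle poles apart (chr10:92593286-92655395), was at 10.8 and 16.4 CPM in HCC44 DMSO and 44.4 and 48.7 CPM in HCC44 ACBI1, and at 54.7 and 50.6 and 59.3 and 51.6 CPM in H1975. HCC44 rose to near the H1975 level, where the groups overlapped. KIF11 had a log2 fold change of 1.77 ± 0.17 (SE, adjusted p = 4.41e-05) in HCC44, 0.08 ± 0.16 (SE, adjusted p = 0.768) in H1975 and a difference of 1.70 ± 0.24 (SE, adjusted p = 0.00128), the smallest adjusted p-values among the 38 in HCC44 and in the difference. The other motors rose as well in HCC44: KIF2C, a kinesin-13 that depolymerizes microtubules, by 1.92 and KIF4A, the chromokinesin, by 1.97. TPX2, which activates AURKA on spindle microtubules, rose by 1.17 from a control level of 76.8 ± 27.1 CPM. DLGAP5, HMMR, ASPM and CKAP2L, which bind or organize spindle microtubules or poles, rose by 1.61, 1.41, 1.69 and 1.77.

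NUSAP1, a microtubule-bundling protein of the spindle (chr15:41332694-41381050), was the third gene not called in HCC44. It had 0.0159 and 0.0627 CPM under DMSO and 0.128 and 0.299 CPM with ACBI1, from 5 and 27 counts in all. The ratio was 5.43-fold, with an exact 95% interval of 2.06 to 18.1 that covers counting error only. The fit gave 2.38 ± 0.85 (SE, adjusted p = 0.0503). In H1975, with 11 and 15 counts, levels were 0.109 and 0.0592 CPM and 0.160 and 0.0424 CPM, which overlap. In GENCODE, 62.2% of its exon length is shared on the same strand with another gene, AC087721.2, and 57.6% of that of PRC1 with AC068831.7. Both genes were under 1 CPM in all libraries, while the other 36 had group means from 1.74 to 315 CPM. Among the summary rows left out, 3802600 to 4167581 counts per library are labelled ambiguous, that is, not assigned to a single gene. How many of these fit NUSAP1 or PRC1 is not known. The counter's setting for such reads is not given in the sources used here, so the levels of NUSAP1 and PRC1 are uncertain. CENPA shares 6.96% of its exon length with SLC35F6.

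All 6 genes of the central spindle and cytokinesis rose in HCC44. KIF20A, the kinesin that carries the passenger complex to the central spindle (chr5:138178719-138187715), had the largest difference between the lines. It was at 2.19 and 2.51 CPM in HCC44 DMSO and 7.07 and 14.96 CPM in HCC44 ACBI1. H1975 went the other way, from 28.4 and 25.5 CPM under DMSO to 23.1 and 13.9 CPM with ACBI1. Neither line had overlapping groups. KIF20A had a log2 fold change of 2.23 ± 0.39 (SE, adjusted p = 0.00329) in HCC44, -0.55 ± 0.34 (SE, adjusted p = 0.276) in H1975 and a difference of 2.77 ± 0.52 (SE, adjusted p = 0.01). Without H1975 DMSO replicate 1 the difference was 2.70 (adjusted p = 0.0543). BRD8 and CDC23 overlap KIF20A on the opposite strand. Other genes overlap CCNA2, CDC25C, PLK1, NUF2, KIF2C, KIF4A, HMMR, CKAP2L, KIF23, PRC1 and ANLN in the same way.

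ECT2, the exchange factor that activates RhoA at the division plane (chr3:172750682-172821474), was the exception in level under DMSO. It was at 79.2 and 113 CPM in HCC44 DMSO and 150.2 and 188 CPM in HCC44 ACBI1. H1975 held 69.5 and 69.0 CPM under DMSO and 96.2 and 91.7 CPM with ACBI1. Both lines had treated libraries above their controls. On the log2 scale ECT2 was at 0.81 ± 0.16 (SE, adjusted p = 0.00326) in HCC44 and 0.44 ± 0.16 (SE, adjusted p = 0.0595) in H1975, and the difference of 0.37 ± 0.22 (SE, adjusted p = 0.292) was not called. The H1975 value was called under 12 of the 17 other fits, at 0.44 to 0.64, among them DESeq2 (0.47 (adjusted p = 0.022)) and each fit without one HCC44 library (adjusted p = 0.0196 to 0.0494).

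BIRC5 encodes survivin, a passenger complex subunit (chr17:78214186-78225636). It was at 9.08 and 23.9 CPM in HCC44 DMSO and 55.6 and 89.7 CPM in HCC44 ACBI1, and at 56.6 and 51.6 and 79.3 and 65.5 CPM in H1975, with treated libraries higher in both. On the log2 scale the values were 2.14 ± 0.43 (SE, adjusted p = 0.00776) in HCC44 and 0.42 ± 0.41 (SE, adjusted p = 0.483) in H1975. The HCC44 call was lost without HCC44 ACBI1 replicate 2, at 1.75 (adjusted p = 0.0651), and without any one H1975 library, at 2.14 with adjusted p = 0.0681 to 0.0711. ANLN, the cleavage furrow scaffold anillin, and KIF23, a subunit of centralspindlin, rose by 1.56 and 1.44. PRC1, the crosslinker of the central spindle, rose by 1.22 on 44 and 102 counts, a call that was lost without HCC44 DMSO replicate 1, at 0.87 (adjusted p = 0.173), and without HCC44 ACBI1 replicate 2, at 0.98 (adjusted p = 0.14).

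Both genes of chromosome structure rose in HCC44. MKI67 encodes Ki-67, which coats mitotic chromosomes (chr10:128096659-128126385). It was at 18.98 and 32.1 CPM under DMSO and 87.3 and 151 CPM with ACBI1 in HCC44, and at 192 and 172 and 188 and 141 CPM in H1975. The HCC44 groups were well apart and the H1975 groups overlapped. MKI67 had a log2 fold change of 2.22 ± 0.33 (SE, adjusted p = 0.00211) in HCC44, -0.15 ± 0.32 (SE, adjusted p = 0.769) in H1975 and a difference of 2.37 ± 0.45 (SE, adjusted p = 0.0131). The difference was not called without any one H1975 library, at 2.14 to 2.55 with adjusted p = 0.0707 to 0.117.

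TOP2A, topoisomerase II alpha, untangles chromatids before they part (chr17:40388516-40417950). HCC44 held 62.0 and 127 CPM under DMSO and 270.2 and 359 CPM with ACBI1, and H1975 held 194 and 172 and 217 and 181 CPM. The treated HCC44 libraries were the highest of all 8. TOP2A had a log2 fold change of 1.73 ± 0.32 (SE, adjusted p = 0.00531) in HCC44, 0.12 ± 0.31 (SE, adjusted p = 0.81) in H1975 and a difference of 1.61 ± 0.44 (SE, adjusted p = 0.0455). That difference was called without HCC44 DMSO replicate 1 or 2, and not without any of the other 6 libraries (1.40 to 1.81, adjusted p = 0.0783 to 0.25).

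Under DMSO alone, HCC44 held less of these transcripts than H1975. Of the 38 genes, 33 were lower and 1, ECT2, was higher, so 89.5% were called. With no filter on low counts, 27 were called lower and 1 higher. With each library left out in turn, the median log2 difference of the 38 ran from -2.43 to -1.44. Lines differ widely: 67.9% of all tested genes were called between them, 36.4% as lower in HCC44. The median was -1.88 on the log2 scale (HCC44 minus H1975), against -0.08 over all tested genes, and 30 genes were called at least 2-fold lower, as were 25.4% of all tested genes. Both HCC44 DMSO libraries lay below both H1975 DMSO libraries for 35 of 38, against 45% of all tested genes. HCC44 DMSO had the lowest mean of the 4 groups for 36, against 29.2%.

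The largest gaps under DMSO were in KIF20A, at -3.52 ± 0.40 (SE, adjusted p = 9.15e-05), PLK1, at -3.17 ± 0.39 (SE, adjusted p = 0.000222), and UBE2C, at -3.11 ± 0.37 (SE, adjusted p = 2e-04). UBE2C was at 75.3 and 62.8 CPM in H1975 DMSO and 5.09 and 10.9 CPM in HCC44 DMSO (chr20:45812576-45816957). Of the other named genes, CCNB1 was at -2.61, CDK1 at -1.95, AURKB at -2.73, CDC20 at -2.70 and MKI67 at -2.83 on the log2 scale. BUB1 was at -2.02, CENPF at -1.86 and CCNF at -1.37. AURKA, at -0.48 ± 0.32 (SE, adjusted p = 0.217), was not called. TOP2A, at -0.95 ± 0.31 (SE, adjusted p = 0.0291), kept its call only without one or the other HCC44 DMSO library among the 8 left out in turn, at adjusted p from 0.0556 to 0.196 without each of the other 6. ECT2, the exception, was higher in HCC44 by 0.48 ± 0.16 (SE, adjusted p = 0.022). That call was lost with library totals, at 0.36 (adjusted p = 0.0585), without H1975 DMSO replicate 1 or 2, at adjusted p = 0.0918 and 0.0587, and without HCC44 DMSO replicate 2, at 0.19 (adjusted p = 0.269).

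With ACBI1, HCC44 came nearer to the level of untreated H1975, though these are levels of 2 lines and not a test. The median ratio of group means, HCC44 ACBI1 over H1975 DMSO, was -0.243 on the log2 scale, and 13 of 38 genes had the higher mean in treated HCC44. Both treated HCC44 libraries were above both H1975 DMSO libraries for 9 of 38 genes, a smaller share than the 39.3% of all tested genes. Counted by group mean, the highest group was H1975 DMSO for 13 genes, H1975 ACBI1 for 13 and HCC44 ACBI1 for 12.

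**Figure D4:**
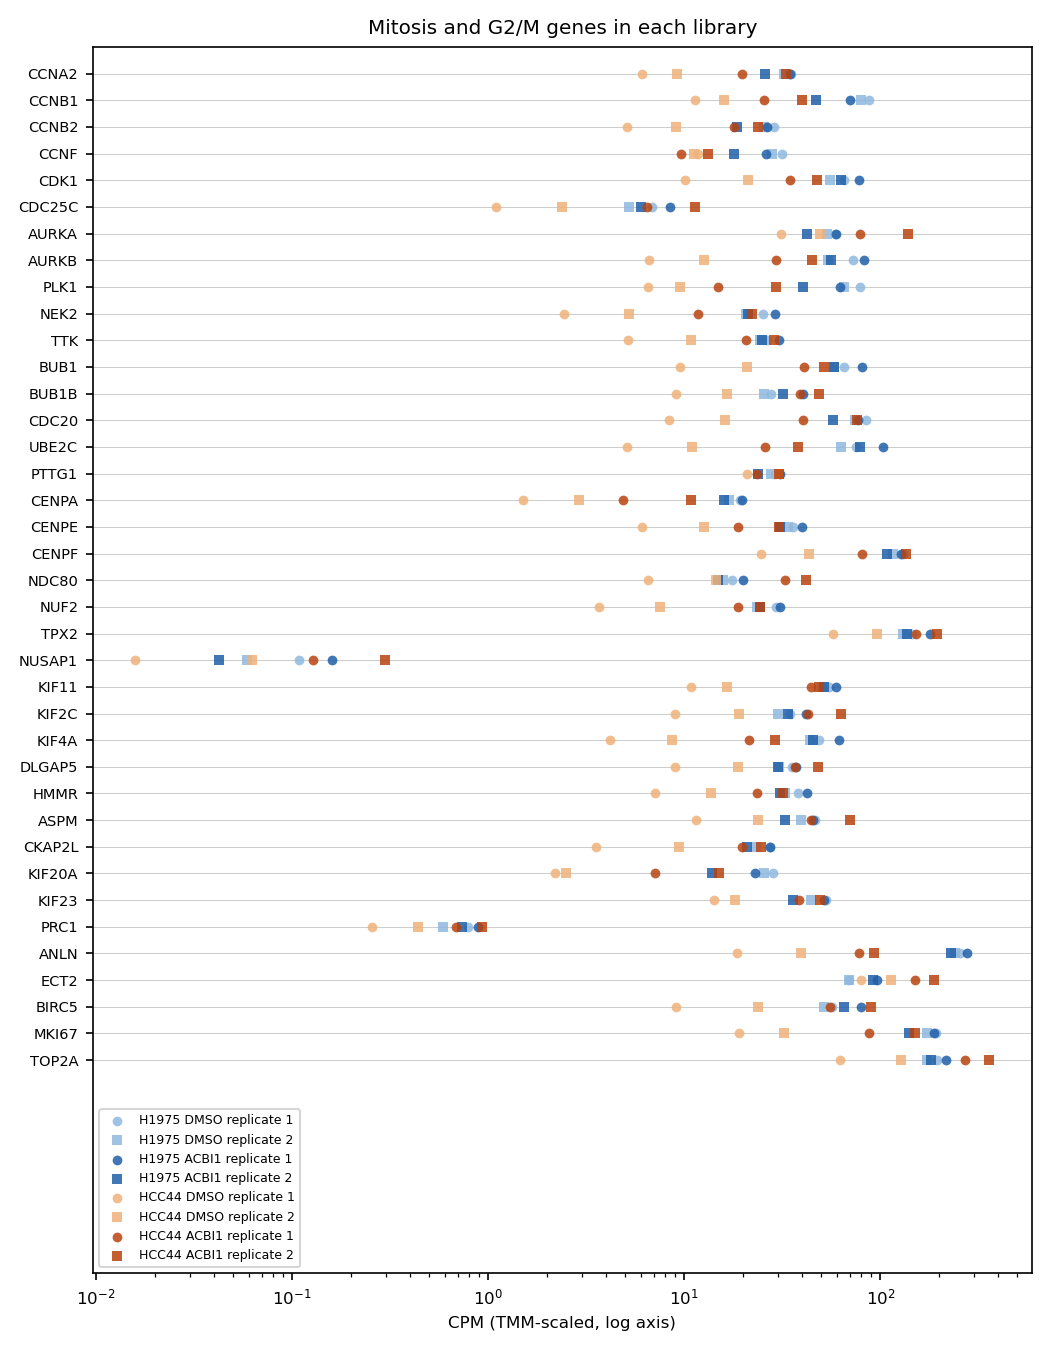
TMM-scaled CPM of the 38 genes in each of the 8 libraries on a log axis, 1 gene per line in order of role, with line and treatment by colour and marker as in the legend. The HCC44 DMSO libraries lie to the left of the others for most genes. PTTG1 lies between 21.0 and 30.9 CPM in all libraries, and NUSAP1 and PRC1 lie under 1 CPM.

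Within a library, the genes were compared only per length, as CPM per kilobase of annotated exon, leaving out NUSAP1 and PRC1. UBE2C was first in H1975 under DMSO (53.7) and with ACBI1 (70.6), followed by ANLN (41.0) under DMSO and by TPX2 (43.8) with ACBI1. In HCC44, TPX2 was first under DMSO (21.3) and TOP2A with ACBI1 (48.9, with TPX2 next at 48.0). CDC25C was last in H1975 under both conditions (1.8 and 2.18) and in HCC44 DMSO (0.521), and CCNF was last in HCC44 ACBI1 (1.81). So the order within the group differed between lines, and the spread between libraries leaves neighbours in it, such as TOP2A and TPX2, undecided.

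Other genes of the pathway, from 7 lists of regulators and machinery outside the 38, were also higher in HCC44 after ACBI1, with less uniform direction. Of 144 tested, 80 rose and 13 fell in HCC44, with a median log2 fold change of 0.61. Over all tested genes in HCC44, 17.5% rose and 17.4% fell. In H1975, 15 rose and 14 fell, with a median of 0.09, where 14.6% of all tested genes rose and 16.7% fell. These shares are the background for the single lists that follow. That split depended on the scaling: it was 25 and 9 with upper-quartile factors and 42 and 6 with library totals, which raise the median of all H1975 genes from -0.01 to 0.05 and 0.18. The difference between the lines was called for 58 with the larger value in HCC44 and for 8 with the smaller, against 10.2% and 8.4% of all tested genes. Under DMSO, 34 were higher and 76 lower in HCC44 than in H1975, against 31.6% and 36.4%.

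Among 10 activators of the programme, 4 rose and 3 fell in HCC44. FOXM1, the forkhead factor of G2/M transcription, was at 11.9 and 18.7 CPM under DMSO and 64.3 and 90.5 CPM with ACBI1 in HCC44, and at 80.7 and 71.2 and 106 and 82.8 CPM in H1975. Its fold change was 2.33 ± 0.25 (SE, adjusted p = 0.000328) in HCC44, 0.32 ± 0.24 (SE, adjusted p = 0.359) in H1975, and the difference 2.02 ± 0.34 (SE, adjusted p = 0.00694). MYBL2, the B-Myb partner of the MuvB core, was at 16.3 and 28.2 CPM under DMSO and 61.0 and 83.4 CPM with ACBI1 in HCC44. H1975 held 139.6 and 132 and 145 and 116 CPM. MYBL2 rose in HCC44 by 1.70 ± 0.26 (SE, adjusted p = 0.00208), and the difference was 1.76 ± 0.36 (SE, adjusted p = 0.0155). Both factors rose in HCC44 and were not called in H1975. The MuvB subunit LIN52 and the CCAAT-binding subunit NFYA fell in HCC44, by 0.50 and 0.77 on the log2 scale, and NFYA fell by 0.31 in H1975.

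Of 13 E2F and pocket proteins, 6 rose and 1, E2F4, fell in HCC44. E2F1, an activator of S-phase genes, rose in both lines, by 1.46 ± 0.13 (SE, adjusted p = 1.81e-05) in HCC44 and 0.76 ± 0.12 (SE, adjusted p = 0.00127) in H1975. E2F2 rose by 2.47 and 1.23. E2F7, a repressor, was called in opposite directions, at -1.45 in H1975 and 0.42 in HCC44, with a difference of 1.87 ± 0.17 (SE, adjusted p = 0.000119). The pocket proteins were not called with ACBI1: RB1 was at -0.00093 in HCC44 and -0.23 in H1975, RBL1 at -0.07 and 0.06, and RBL2 at -0.26 and 0.00. Under DMSO, RB1 was higher in HCC44 than in H1975, at 69.5 ± 1.77 CPM against 24.4 ± 1.52 CPM, a log2 difference of 1.51 ± 0.11 (SE, adjusted p = 3.61e-07).

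In the list of entry control, 9 of 13 rose and 1 fell in HCC44, and 3 rose and 2 fell in H1975. PKMYT1 and WEE1, kinases that inhibit CDK1, rose in HCC44 by 2.12 and 0.63 ± 0.11 (SE, adjusted p = 0.00146), and WEE1 was at -0.12 in H1975, not called. GTSE1, a microtubule-binding protein of G2, rose by 1.78 in HCC44, while PPP2R2A, a PP2A subunit, fell by 0.49. In H1975 the checkpoint kinases CHEK1 and CHEK2 rose by 0.65 and 0.91, and CDC25B and PPP2R2D were at -0.69 and -0.38.

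Of 21 condensin and cohesin genes, 13 rose and 0 fell in HCC44. SGO1, the protector of centromeric cohesin, and CDCA5, or sororin, rose by 2.16 and 2.099. In H1975 the condensin subunit SMC2 rose by 0.42, and the cohesin subunits STAG1 and STAG2 were lower, at -0.36 and -0.37. Of 36 other kinetochore and checkpoint genes, 26 rose and 2 fell in HCC44. SPC25 of the NDC80 complex and CENPI of the inner kinetochore rose by 2.52 and 2.52. MAD2L1, the checkpoint effector MAD2, rose by 1.29 ± 0.25 (SE, adjusted p = 0.00423) in HCC44 and was at 0.43 ± 0.24 (SE, adjusted p = 0.218) in H1975. BUB3, the partner of BUB1 and BubR1, fell in both lines, by 0.32 in HCC44 and 0.50 in H1975. SKA1 and CENPP, kinetochore proteins, rose in H1975 by 1.12 and 1.18, and SPDL1 was at -0.48.

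Of 34 other spindle and cytokinesis genes tested, 21 rose and 0 fell in HCC44. CDCA3 and KIF18B, a kinesin of spindle microtubules, rose by 2.45 and 2.43. In H1975, KIF15 and HAUS1 rose by 0.70 and 0.36, and NUMA1, which anchors spindle poles, was at -0.61. Of 17 subunits and regulators of the anaphase-promoting complex tested, 1 rose and 6 fell in HCC44, against 17.5% and 17.4% of all tested genes. Of the 14 subunits among them 0 rose and 6 fell. The riser was the regulator FBXO5, the inhibitor EMI1, at 0.67 ± 0.12 (SE, adjusted p = 0.00122). CDC26 and ANAPC13, small subunits of the complex, fell by 1.42 and 0.78. In H1975, UBE2S and ANAPC13 rose by 0.57 and 0.44, and FZR1 and ANAPC7 were at -0.47 and -0.59.

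A list of S-phase and replication genes moved with the mitotic genes in HCC44. Of 36, 30 rose and 0 fell, with a median log2 fold change of 0.83, less than the 1.71 of the mitotic genes. TK1 and RRM2, enzymes of nucleotide supply, rose by 2.07 and 1.87. Over all tested genes 17.5% rose in HCC44. In H1975, 8 of 36 rose and 0 fell, where 14.6% of all tested genes rose, TYMS by 0.63 and PRIM1 by 0.61 among them. A list of cell-cycle exit genes, which also held the D-type cyclins, CDK4 and CDK6, was mixed. Of 20 genes tested, 4 rose and 6 fell in HCC44, and 1 rose and 8 fell in H1975. In HCC44 that share of risen genes is near the 17.5% of all tested genes, and 17.4% fell. In H1975, 14.6% of all tested genes rose and 16.7% fell. CDKN1A, the CDK inhibitor p21, fell in both lines. It was at 145 and 109 CPM under DMSO and 72.5 and 60.2 CPM with ACBI1 in HCC44, and at 164 and 148 and 69.1 and 49.7 CPM in H1975. Its fold changes were -0.93 ± 0.18 (SE, adjusted p = 0.00372) in HCC44 and -1.40 ± 0.18 (SE, adjusted p = 0.000659) in H1975. In HCC44 the inhibitors CDKN2B (p15) and CDKN2C (p18) rose by 1.94 and 1.42 and BTG1 was at -0.81. KLF4 was at -1.43 and CDKN2D at 0.49 in H1975.

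**Figure D5:**
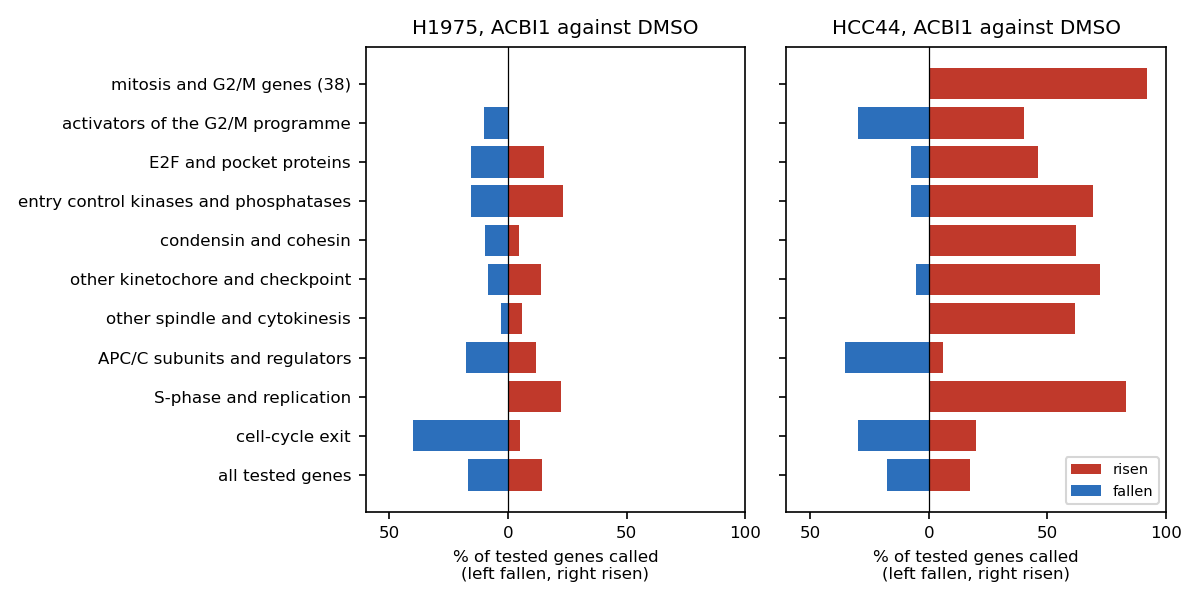
Genes that rose and fell with ACBI1, as percent of those tested, for the 38 mitosis and G2/M genes, each pathway list and all tested genes, in each line. In HCC44, 92.1% of the 38 genes rose, against 17.5% of all tested genes, and in H1975 none did. The cell-cycle exit list also holds the D-type cyclins, CDK4 and CDK6, and the list of activators holds MuvB and NF-Y subunits.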

How the data were processed

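RNA from 8 libraries was analysed from 1 table per library of read counts per gene name, which the authors deposited. Per the submitters' processing notes, TopHat2 2.1.1, HTSeq 0.11.0 and build hg38 were used. Their settings, strand setting and annotation are not given in the sources used here. The tables list 61228 gene names, and summary rows without a gene, 14.3% to 15.8% of the total, were left out.

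edgeR 4.0.16 in R 4.3.3 kept 21307 genes by filterByExpr, scaled libraries by TMM and fitted all 8 libraries with 1 mean per group, leaving 4 residual degrees of freedom. Quasi-likelihood F-tests, two-sided and with robust dispersion, gave 4 comparisons: ACBI1 against DMSO in each line, their difference, and the lines under DMSO. Calls were made at an adjusted p (Benjamini-Hochberg) under 0.05. Standard errors are the size of the log2 fold change over the root of F, and the common BCV was 0.123. No 2 libraries of a group matched within counting error (chi-square over its degrees of freedom 21.7 to 43.5). The procedure was tested on simulated counts, where the share of false calls was above the nominal level.

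Coordinates, exon lengths and overlaps are from GENCODE release 29 and promoters from RefSeq. The members and lists were chosen with earlier results of these data known, so no list was given a p. Named in full were 12 core genes, the 3 highest and 3 lowest log2 fold changes of each comparison, genes not called in HCC44, and, of the pathway lists, fixed regulators and the 2 largest called rises and falls per list and line at a group mean of at least 5 CPM. Alternatives were DESeq2 1.42.0, RLE, upper-quartile and library-total scaling, no filter, 1 CPM in 2 libraries, each line alone, a replicate block, non-robust dispersion, and each library left out. Figures were drawn with matplotlib 3.10.9.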

Additional observations from a re-analysis of the deposited data

Results flagged for a closer look

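For 20 of the 38 genes, ACBI1 had a different effect in HCC44 than in H1975 by the test of that difference. Values are log2 fold changes in HCC44 minus those in H1975, each with an adjusted p from edgeR's quasi-likelihood test between 0.00128 and 0.0498. The widest gaps were KIF20A at 2.77, CDC20 at 2.49, MKI67 at 2.37, CDC25C at 2.08, PLK1 at 1.96, CCNA2 at 1.94 and NUF2 at 1.89. Next came CCNB2 at 1.83, AURKB at 1.83, ASPM at 1.82, CCNB1 at 1.77, KIF4A at 1.76, NDC80 at 1.75 and CENPF at 1.72. The narrowest called were KIF11 at 1.70, TOP2A at 1.61, KIF23 at 1.59, DLGAP5 at 1.58, ANLN at 1.53 and BUB1B at 1.34. In each of the 20, HCC44 had the higher value. Among the fixed regulators the difference was called for FOXM1 at 2.02, MYBL2 at 1.76, E2F1 at 0.71 and WEE1 at 0.75, with adjusted p = 0.00694, 0.0155, 0.0183 and 0.00853. Without H1975 DMSO replicate 1 the difference was called for 2 of the 38 genes, KIF11 and KIF23.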

How the results depend on the processing

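With 1 setting changed at a time, 34 or more of the 35 HCC44 rises were kept by DESeq2, each scaling, each line fitted alone, a 1 CPM filter, non-robust dispersion and the replicate block. With no filter the count of risen genes was 20 in HCC44 and 13 in the difference, which was 31 with non-robust dispersion. In H1975, 1 of the 38 rose with DESeq2, library totals, RLE factors, upper-quartile factors and a filter of 1 CPM, 2 rose and 1 fell with no filter, and 3 rose with each line alone. Library totals moved the H1975 median of the 38 from 0.06 to 0.26 and left 0 higher in HCC44 under DMSO, and called 5427 genes risen and 2080 fallen in H1975. Of the pathway genes in H1975, library totals gave 42 risen and 6 fallen, upper-quartile factors 25 and 9, and each line alone 28 risen. The cause was not tested.

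Replicate numbers are shared between the groups, but nothing in the labels says what a number marks. Deviations of same-numbered libraries correlated at 0.642 in H1975 and 0.224 in HCC44. With the replicate block, 36 of the 38 rose in HCC44, 4 rose and 5 fell in H1975 (CCNB1, CCNF, PLK1, CDC20 and KIF20A fell), and 34 were called in the difference. Pathway genes in H1975 were then 40 risen and 26 fallen, and over all genes the difference was 3481 risen and 2877 fallen.

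Without each library in turn, the 38 genes gave 22 to 36 risen in HCC44, 0 to 1 risen and 0 to 1 fallen in H1975, 2 to 34 risen in the difference and 0 to 1 higher in HCC44 under DMSO. Their median ran from 1.28 to 2.27 in HCC44, 1.29 to 2.24 in the difference and -2.43 to -1.44 under DMSO. Pathway genes ran from 7 to 16 risen and 6 to 17 fallen in H1975, 6 to 14 fallen in HCC44, and 30 to 67 risen and 4 to 9 fallen in the difference. Over all genes the ranges were 1786 to 3290 risen and 1904 to 3871 fallen in H1975, 2413 to 3681 risen in HCC44, and 1306 to 2328 risen and 1035 to 1806 fallen in the difference.

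These values, none of them called with the settings used in the report, turned sign. In H1975 with upper-quartile factors these were CENPF 0.0142, PTTG1 0.0228 and MYBL2 0.0158, and with library totals AURKA 0.0574, CENPF 0.15, MKI67 0.0590, PTTG1 0.15, MYBL2 0.15 and WEE1 0.0802. RBL2 was -0.00047 with no filter and -0.0023 with the replicate block. In HCC44, CCNF was 0.0418 with upper-quartile factors, 0.0822 with library totals and 0.0074 with a filter of 1 CPM. RB1 in HCC44 was 0.0527 with upper-quartile factors, 0.0912 with library totals, 0.0020 with no filter, 0.0151 with a filter of 1 CPM and 0.0059 with each line alone, and RBL1 0.0262 with library totals. Without single libraries, H1975 values ran from -0.38 to 0.10 for AURKA, -0.14 to 0.41 for AURKB, -0.0551 to 0.41 for BUB1, -0.15 to 0.0775 for CENPF, -0.34 to 0.0735 for MKI67, -0.19 to 0.12 for MYBL2, -0.91 to 0.94 for NUSAP1, -0.21 to 0.14 for PTTG1, -0.0083 to 0.17 for RBL1 and -0.16 to 0.20 for RBL2. In HCC44 they ran from -0.25 to 0.21 for CCNF, -0.16 to 0.36 for PTTG1, -0.12 to 0.11 for RB1 and -0.20 to 0.0570 for RBL1. The difference ran from -0.10 to 0.42 for PTTG1 and -0.25 to 0.0030 for RBL1, and the DMSO comparison from -0.44 to 0.0816 for PTTG1. With 2 libraries a group, counts under about 30 per group, as in NUSAP1, leave a fold uncertain by several times.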
